A study of Mus musculus with 7 samples.

Results

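The genes described here are 39 genes of glucose uptake, glycolysis, lactate handling and the hypoxia response, followed in mouse articular chondrocytes, the cells of joint cartilage. They were listed by gene name as the glycolytic steps and known targets or regulators of the hypoxia inducible factors (HIF). The list was drawn up with earlier results of these data known, though no measured value enters the rule. The count file has 52459 gene names and holds all 39 of them. All 39 were among the 13367 genes that passed the filter on low counts. Primary cells were taken from the femoral head, grown in a high-glucose medium with serum, and treated for 24 h. The study measured RNA by bulk sequencing in 3 groups: vehicle (n = 2, replicates 1 and 2), TGFb1 at 5 ng/ml (n = 2, replicates 1 and 3) and BMP2 at 100 ng/ml (n = 3, replicates 1, 2 and 3). TGFb1 and BMP2 are secreted ligands of one growth factor family that act on cartilage cells. All groups shared the tissue, the medium and the time of treatment, and the labels name no genetic change, no strain, age or sex of the mice and no oxygen condition. The labels do not say whether replicates came from separate animals or cultures, so p-values measure the spread between these libraries, which may be technical.

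Cartilage has no blood vessels, and its cells live at low oxygen and obtain most of their ATP from glycolysis. Glucose enters through transporters such as Slc2a1 (GLUT1), is phosphorylated by hexokinase, split by aldolase and oxidised to pyruvate. Lactate dehydrogenase turns pyruvate into lactate, which leaves the cell through the monocarboxylate transporters Slc16a1 (MCT1) and Slc16a3 (MCT4), while pyruvate dehydrogenase kinases hold pyruvate back from the mitochondria. HIF proteins pair an oxygen-regulated alpha subunit (Hif1a or Epas1, also called HIF-2 alpha) with a constant partner, bind a short DNA core and switch on many of these genes, and the prolyl hydroxylases Egln1 and Egln3 mark the alpha subunits for destruction when oxygen is present.

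The 7 libraries held 6747997 to 18047765 counts each, and the 2 TGFb1 libraries were the deepest. Summed markers of chondrocytes (11 of 12 in the file, none at 0 in all libraries) reached 49077 to 49381 CPM with vehicle, 37997 to 44447 with TGFb1 and 43277 to 50685 with BMP2, where CPM stands for the counts of a gene scaled to the same library size. Of these 11 markers, 2 rose and 6 fell with TGFb1 (median log2 fold change -0.88), and 1 rose and 1 fell with BMP2 (0.14). The shares past an adjusted p of 0.05 were 72.7% and 18.2%, against 56.2% and 11.5% of all tested genes. Markers of endothelium summed to at most 1.99 CPM and those of red cells to at most 0.600 CPM. Markers of leukocytes and osteoclasts summed to 111 to 125 CPM with vehicle, 147 to 162 with TGFb1 and 119 to 165 with BMP2. Those of fibroblasts, muscle and fat cells (12 genes, 2 of them past the filter) summed to 17.1 to 19.1 CPM with vehicle, 60.7 to 65.0 with TGFb1 and 16.3 to 26 with BMP2. The part of these cells in the results was not tested. In bulk samples, fewer cells of a type and less RNA per cell cannot be told apart. The TGFb1 libraries also differed from the rest by transcript length. The median log2 fold change against vehicle over all tested genes was 2.77 for transcripts of up to 1000 nucleotides and -0.44 for those above 5000 nucleotides, and ribosomal protein genes took 6.12% to 6.16% of the counts against 1.01% to 1.35% in the other libraries. Each member was therefore also fitted with an offset for gene length, and with one for transcript length and GC content, which brought these medians to 0.71 and -0.10. Values with these offsets are given beside a result where they end its call, and for some values that they move or turn.

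The promoters of 8 members are shown, because these are the genes with the largest changes against vehicle that passed the test with and without both offsets and have at least 200 bases free of annotated exons before their start. The sequences are from RefSeq on the GRCm38.p6 build (mm10), read 5′ to 3′ on the gene's strand, and end at or shortly before the transcription start. Capitals mark ACGTG or GCGTG, the core letters of a HIF response element, on either strand (CACGT or CACGC when read from the other strand). Not fully inside the printed stretches, and so not marked, were an ACGTG of Slc2a1 (-36 to -32 from the start) and another of Slc16a3 (-14 to -10). The windows are Slc16a3 (chr11:120948817-120949052, plus strand), Slc2a1 (chr4:119108495-119108710, plus strand), Hk2 (chr6:82774455-82774704, minus strand), Eno1 (chr4:150236458-150236707, plus strand), Pdk2 (chr11:95041372-95041621, minus strand), Bnip3 (chr7:138909520-138909756, minus strand), Adm (chr7:110627407-110627656, plus strand) and Car12 (chr9:66713436-66713685, plus strand).
Slc16a3: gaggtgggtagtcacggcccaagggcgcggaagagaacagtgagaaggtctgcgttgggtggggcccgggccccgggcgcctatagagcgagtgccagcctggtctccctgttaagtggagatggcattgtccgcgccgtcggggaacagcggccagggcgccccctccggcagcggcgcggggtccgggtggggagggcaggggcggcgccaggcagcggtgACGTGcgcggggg
Slc2a1: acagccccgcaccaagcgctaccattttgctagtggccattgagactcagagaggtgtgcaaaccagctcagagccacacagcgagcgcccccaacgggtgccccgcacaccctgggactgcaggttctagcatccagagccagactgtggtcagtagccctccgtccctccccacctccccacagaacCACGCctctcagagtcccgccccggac
Hk2: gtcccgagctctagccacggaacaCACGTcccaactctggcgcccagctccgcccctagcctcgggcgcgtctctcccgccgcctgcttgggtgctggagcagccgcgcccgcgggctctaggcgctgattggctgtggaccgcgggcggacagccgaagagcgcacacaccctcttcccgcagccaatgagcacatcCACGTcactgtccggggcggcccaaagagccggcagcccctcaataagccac
Eno1: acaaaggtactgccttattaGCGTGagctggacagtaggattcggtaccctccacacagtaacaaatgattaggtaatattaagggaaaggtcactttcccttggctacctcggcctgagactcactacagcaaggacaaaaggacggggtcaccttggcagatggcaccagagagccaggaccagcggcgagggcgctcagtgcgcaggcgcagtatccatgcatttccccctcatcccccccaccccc
Pdk2: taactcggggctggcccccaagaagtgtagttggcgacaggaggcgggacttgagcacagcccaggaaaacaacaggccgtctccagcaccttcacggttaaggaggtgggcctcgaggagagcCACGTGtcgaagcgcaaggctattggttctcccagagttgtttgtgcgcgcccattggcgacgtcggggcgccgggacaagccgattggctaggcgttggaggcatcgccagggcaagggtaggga
Bnip3: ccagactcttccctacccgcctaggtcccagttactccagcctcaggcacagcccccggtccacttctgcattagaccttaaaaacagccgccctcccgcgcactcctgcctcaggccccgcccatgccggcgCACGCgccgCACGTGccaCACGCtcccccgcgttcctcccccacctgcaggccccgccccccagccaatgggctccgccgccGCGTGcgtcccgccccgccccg
Adm: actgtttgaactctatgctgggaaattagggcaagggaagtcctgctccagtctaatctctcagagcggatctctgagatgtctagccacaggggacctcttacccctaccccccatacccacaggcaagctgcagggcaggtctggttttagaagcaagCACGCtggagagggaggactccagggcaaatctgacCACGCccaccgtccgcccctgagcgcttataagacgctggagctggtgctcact
Car12: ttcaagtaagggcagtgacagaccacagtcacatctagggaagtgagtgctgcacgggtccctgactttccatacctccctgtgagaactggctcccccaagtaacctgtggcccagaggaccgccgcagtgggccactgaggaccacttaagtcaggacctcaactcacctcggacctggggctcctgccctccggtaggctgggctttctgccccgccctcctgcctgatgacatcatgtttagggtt
Of the 39 members, 36 had a RefSeq promoter window, and Slc2a3, Epas1 and Ndrg1 had none. In the 250 bases before the start, 30 of these 36 (83.3%) held ACGTG or GCGTG on either strand, against 38.6% of all 32851 windows in the table, which include more than 1 start for some genes. ACGTG alone was found in 18 members (50%) against 16.6% of all windows, and GCGTG in 21 (58.3%) against 28.2%. The palindrome CACGTG, which contains ACGTG on both strands, was found in 4 members (11.1%; Slc16a1, Pdk2, Hif1a and Bnip3) against 6.02% of all windows. Car12 held no match in its window, and neither did Gpi1, Tpi1, Eno2, Pkm and Vegfa. A match describes the letters only, and base composition was not matched between the members and all windows.

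With TGFb1 the chondrocytes raised RNA of most steps from hexokinase to pyruvate kinase, together with the lactate exporter Slc16a3, and lowered that of the transporter Slc16a1, of the HIF-2 alpha gene Epas1 and of Ndrg1. With BMP2 fewer glycolytic genes rose, and by less, but the glucose transporter Slc2a1, the mitophagy gene Bnip3, the angiogenic factor Vegfa and the prolyl hydroxylase Egln3 rose, and Slc16a3 and the carbonic anhydrase Car12 rose with both ligands. Against vehicle, TGFb1 raised 21 of the 39 members (53.8%) and lowered 5, 26 in all (66.7%), where 56.2% of all tested genes were called (30.4% rose and 25.8% fell). BMP2 raised 15 members (38.5%) and lowered 1, 16 in all (41.0%), where 11.5% of all tested genes were called (5.33% rose and 6.15% fell). The members' median log2 fold change was 0.63 with TGFb1 (all tested genes -0.02) and 0.45 with BMP2 (all tested genes 0.00). Both comparisons share the same 2 vehicle libraries, so their values are given side by side and not as separate evidence of one another. Calls were made at an adjusted p of 0.05 in edgeR's quasi-likelihood test over 13367 genes. With the length offset TGFb1 raised 19 and lowered 9 members, where 54.1% of all tested genes were called (25.8% rose and 28.4% fell), and BMP2 raised 17 and lowered 1, where 12.4% were called (6.7% rose and 5.69% fell). With the length and GC offset TGFb1 raised 17 and lowered 8, where 50.9% of the 13110 genes of that fit were called (24.1% rose and 26.8% fell), and BMP2 raised 17 and lowered 2, where 13.5% were called (7.3% rose and 6.23% fell). The BMP2 count rested on both vehicle libraries. With either of them left out fewer members were called, and fewer of all tested genes as well. The lone vehicle library was then assumed to vary like the other groups.

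**Figure D1:**
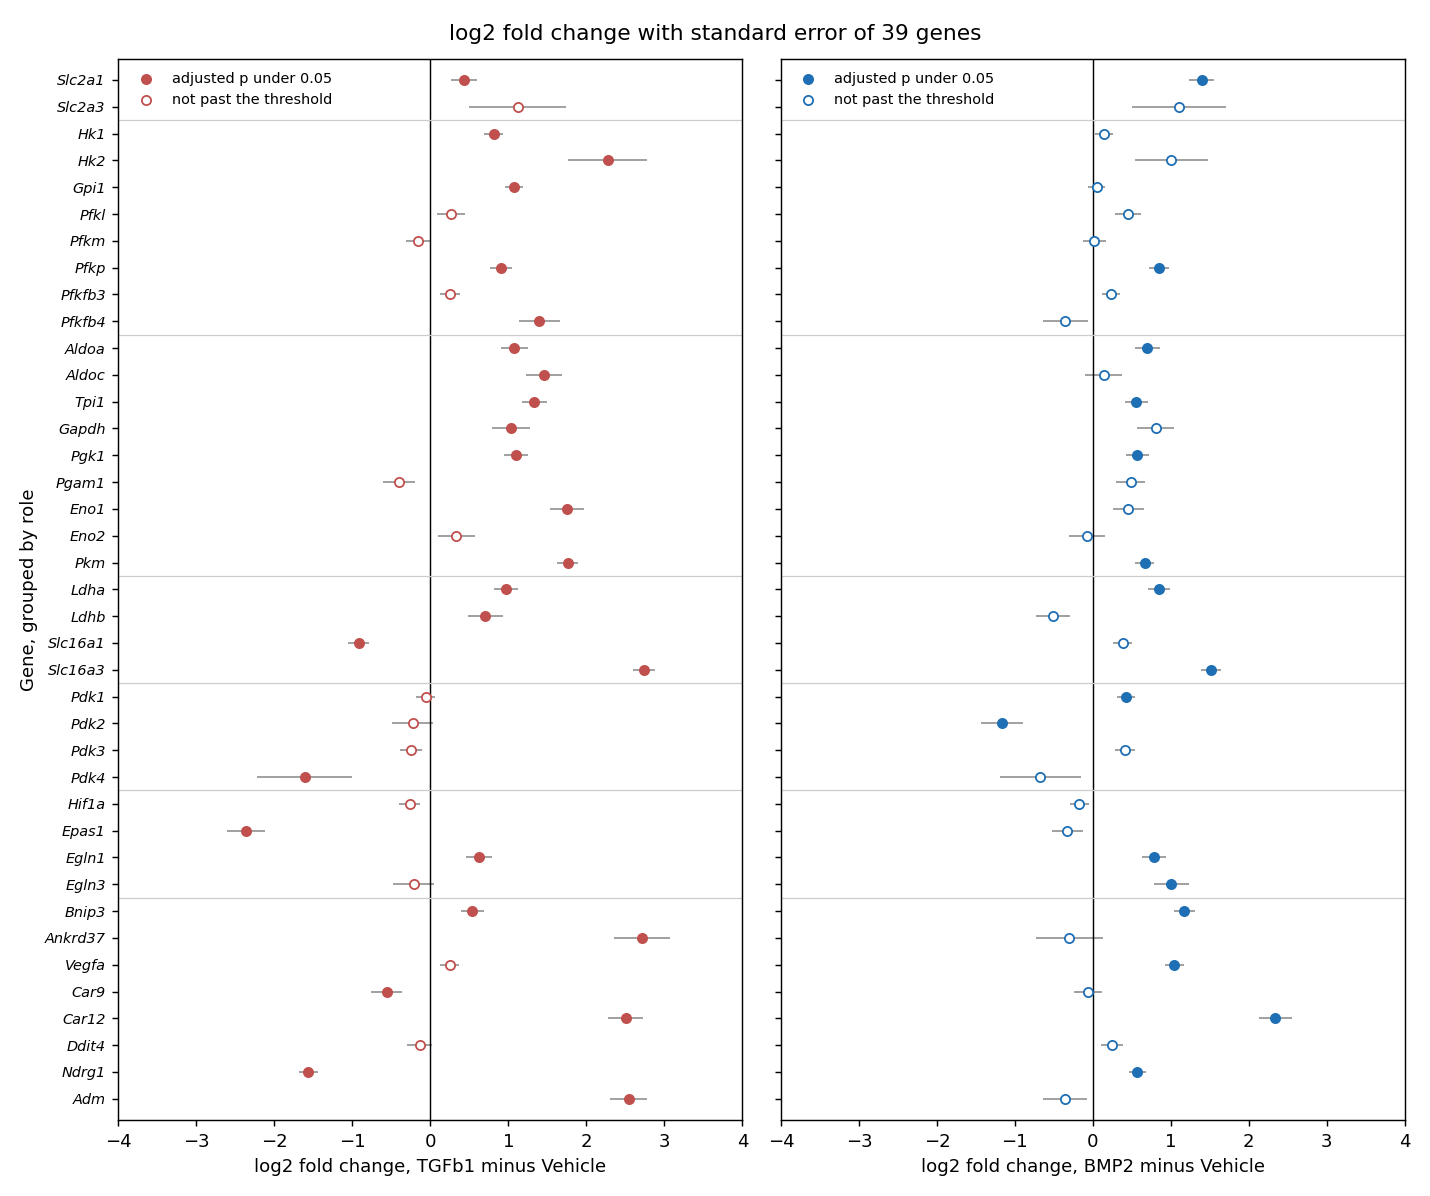
Log2 fold change against vehicle (x axis) with its standard error (bars) for the 39 members in order of their role, TGFb1 on the left and BMP2 on the right; filled points passed an adjusted p of 0.05 and open points did not. Filled points lie mostly right of 0 in both panels, 21 of 26 for TGFb1 and 15 of 16 for BMP2, and the TGFb1 values reach further in both directions.

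Glucose uptake differed between the ligands. Slc2a1 (chr4:119108711-119137983), the main glucose transporter of these cells by level, stood at 95.6 and 73.4 CPM with vehicle, 114 and 114 with TGFb1 and 188, 241 and 239 with BMP2. All 3 BMP2 libraries lay above both TGFb1 libraries, and these lay above both vehicle libraries. The rise was 2.63-fold with BMP2 (log2 1.40 ± 0.16 SE, adjusted p = 0.00034). With TGFb1 it was 1.35-fold (log2 0.43 ± 0.17, adjusted p = 0.048), a call that ended with either offset (log2 0.30, adjusted p = 0.16, and 0.27, adjusted p = 0.21), with DESeq2 (adjusted p = 0.0562) and without Vehicle replicate 2 (0.25, adjusted p = 0.345), TGFb1 replicate 1 (0.0989) or 3 (0.0884) or BMP2 replicate 2 (0.0625) or 3 (0.066). BMP2 exceeded TGFb1 by 0.97 ± 0.15 (adjusted p = 0.00031), and 1.19 with the length and GC offset. Slc2a3 (GLUT3), the other transporter in the group, had only 2 to 25 counts per library, and its differences of 1.12 ± 0.62 and 1.1 ± 0.60 did not pass the test.

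Of the 8 genes that phosphorylate glucose and make or set the level of fructose bisphosphate, TGFb1 raised 5 and BMP2 raised 1. That is 62.5% and 12.5%, where 30.4% and 5.33% of all tested genes rose. Hk2, the inducible hexokinase, read 41.6 and 64.0 CPM with vehicle, 237 and 274 with TGFb1, and 198, 62.0 and 58.3 with BMP2. Both TGFb1 libraries were above all others, and among the BMP2 libraries replicate 1 stood far above the other two, which lay inside the vehicle range. The TGFb1 rise was 4.84-fold (log2 2.27 ± 0.51, adjusted p = 0.0033), while the BMP2 difference of 1.01 ± 0.47 did not pass (adjusted p = 0.21, 95% interval -0.02 to 2.04).

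Gpi1, which converts glucose 6-phosphate to fructose 6-phosphate, read 61.0 and 63.6 CPM with vehicle, 136 and 126 with TGFb1, and 64.9, 68.7 and 60.2 with BMP2. Only the TGFb1 libraries stood apart, by 2.10-fold (log2 1.07 ± 0.12, adjusted p = 3.3e-05). The constitutive hexokinase Hk1 read 35.6 and 35.0 CPM with vehicle, 65.8 and 58.3 with TGFb1 and 37.1, 39.6 and 40.6 with BMP2, a TGFb1 rise of 0.81 ± 0.12 (adjusted p = 0.00025). Pfkp, the platelet form of phosphofructokinase, rose with both ligands. Its level was 27.5 and 35.0 CPM with vehicle, 62.1 and 55.2 with TGFb1 and 56.9, 55.5 and 57.2 with BMP2, so the 2 ligands overlapped above vehicle. The rises were 0.90 ± 0.14 (adjusted p = 0.00031) and 0.85 ± 0.13 (adjusted p = 0.0022). Pfkp overlaps Pitrm1 on the opposite strand over 5.58% of its exon bases, and whether the counting used strand is not stated in the labels. Among other members, Pkm shares 15.3% and Pfkm 10.2% of exon bases with a same-strand gene, and Gpi1 11.5% with an opposite-strand gene.

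The 2 bifunctional enzymes that make and remove fructose 2,6-bisphosphate, the activator of phosphofructokinase, differed. Pfkfb4 read 2.54 and 2.99 CPM with vehicle, 8.39 and 6.26 with TGFb1 and 2.32, 1.86 and 2.26 with BMP2. The TGFb1 libraries were the highest and the BMP2 libraries the lowest, with no overlap. Pfkfb4 rose by 1.40 ± 0.26 with TGFb1 (adjusted p = 0.0011), and BMP2 was lower than TGFb1 by 3.37-fold (log2 -1.75 ± 0.23, adjusted p = 7.7e-05). Pfkfb3, the more abundant of the pair, read 35.8 and 31.7 CPM with vehicle, 40.8 and 39.6 with TGFb1 and 36.7, 42.4 and 40.2 with BMP2. Its differences of 0.25 ± 0.13 and 0.23 ± 0.12 did not pass (adjusted p = 0.11 and 0.25), and the first passed with the offsets (0.41, adjusted p = 0.017, and 0.44, adjusted p = 0.012). The liver and muscle forms Pfkl and Pfkm passed with neither ligand, at 0.27 ± 0.18 and -0.15 ± 0.16 with TGFb1. With the offsets Pfkm passed as lower with TGFb1 (-0.40, adjusted p = 0.049, and -0.47, adjusted p = 0.025). Between the ligands, Pfkm (0.51, adjusted p = 0.00772) and Pfkl (0.49, adjusted p = 0.04) passed as higher with BMP2 with the length and GC offset, and Pfkp (-0.35, adjusted p = 0.0386) as lower with the length offset alone.

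From aldolase to pyruvate kinase, TGFb1 raised 7 of 9 genes and BMP2 raised 4. These shares, 77.8% and 44.4%, compare with 30.4% and 5.33% of all tested genes that rose. Pkm, pyruvate kinase of muscle and most other tissues, read 341 and 367 CPM with vehicle, 1233 and 1167 with TGFb1, and 598, 557 and 527 with BMP2. The 3 groups did not overlap, with vehicle lowest and TGFb1 highest. The rise was 3.39-fold with TGFb1 (log2 1.76 ± 0.13, adjusted p = 1.5e-06) and 1.58-fold with BMP2 (log2 0.66 ± 0.12, adjusted p = 0.0055). The BMP2 call ended without Vehicle replicate 1 (0.61, adjusted p = 0.095) or Vehicle replicate 2 (0.72, adjusted p = 0.06). Eno1, the main enolase, read 99.6 and 119 CPM with vehicle, 383 and 354 with TGFb1 and 197, 128 and 126 with BMP2. The TGFb1 rise was 3.37-fold (log2 1.75 ± 0.22, adjusted p = 6.3e-05), and BMP2, whose replicate 1 was again the highest of its group, differed from vehicle by 0.46 ± 0.19 without passing (adjusted p = 0.17).

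Tpi1, triose phosphate isomerase, read 142 and 154 CPM with vehicle, 431 and 315 with TGFb1, and 224, 225 and 203 with BMP2. The groups again fell in the order vehicle, BMP2, TGFb1 without overlap. The rises were 1.33 ± 0.16 (adjusted p = 5.8e-05) and 0.56 ± 0.15 (adjusted p = 0.036). Aldoa, the main aldolase, read 542 and 568 CPM with vehicle, 1297 and 1046 with TGFb1, and 1069, 832 and 804 with BMP2. It rose by 1.08 ± 0.17 (adjusted p = 0.00039) and 0.70 ± 0.16 (adjusted p = 0.017), and the ligands overlapped. With the length and GC offset the TGFb1 rise of Aldoa was 0.42 (adjusted p = 0.0223), and BMP2 against TGFb1 was 0.28 in place of -0.38, values that both missed the threshold. Pgk1, phosphoglycerate kinase, read 17.1 and 16.3 CPM with vehicle, 34.1 and 37.3 with TGFb1 and 21.7, 28.0 and 25.0 with BMP2, rises of 1.1 ± 0.15 (adjusted p = 0.00014) and 0.57 ± 0.14 (adjusted p = 0.027). Aldoc, a minor aldolase, rose with TGFb1 alone among the calls, by 1.45 ± 0.23 (adjusted p = 0.00036), and differed by 0.14 ± 0.24 with BMP2. The BMP2 calls of these genes ended without Vehicle replicate 1 (adjusted p = 0.25 for Tpi1, 0.15 for Aldoa and 0.14 for Pgk1), without Vehicle replicate 2 (0.17, 0.13 and 0.2) and, for Tpi1 and Pgk1, without BMP2 replicate 2 (0.11 and 0.087) or replicate 3 (0.071 and 0.078).

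Gapdh read 12.2 and 10.2 CPM with vehicle, 29.1 and 16.6 with TGFb1 and 20.2, 17.8 and 20.3 with BMP2, on 85 to 395 counts. The TGFb1 libraries differed from each other by more than the BMP2 libraries did, and both ligand groups lay above vehicle. The TGFb1 rise of 1.03 ± 0.25 (adjusted p = 0.0046) was 0.25 (adjusted p = 0.33) with the length and GC offset, and the BMP2 difference of 0.80 ± 0.23 missed the threshold (adjusted p = 0.052) but passed with the length offset (0.82, adjusted p = 0.0419), with the length and GC offset (0.0168) and with DESeq2 (0.0235). BMP2 against TGFb1 was -0.23 for Gapdh without passing, and 0.57 (adjusted p = 0.0137) with the length and GC offset. Gapdh has 78 annotated near-identical copies, 75 of them in the file, whose counts summed to 49.5% to 130% of its own, and how reads with several matches were counted is not stated in the labels, so its level is uncertain. Pgam1, phosphoglycerate mutase, read 10.6 and 9.33 CPM with vehicle, 7.65 and 7.41 with TGFb1 and 16.9, 12.5 and 12.1 with BMP2. Of these 9 genes it was the 1 called higher with BMP2 than with TGFb1 (0.88 ± 0.18, adjusted p = 0.0015), and Gapdh joined it with the length and GC offset. Its difference of -0.40 ± 0.21 between TGFb1 and vehicle did not pass, and was -1.01 (adjusted p = 0.0014) and -0.84 (adjusted p = 0.0037) with the offsets. Eno2, the neuronal enolase, passed in no comparison.

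All 4 genes of lactate formation and transport passed the test with TGFb1, and 2 did with BMP2. Of all tested genes, 56.2% passed with TGFb1 and 11.5% with BMP2. Slc16a3 (MCT4, chr11:120948480-120960868), the exporter of highly glycolytic cells, read 33.6 and 37.4 CPM with vehicle, 242 and 233 with TGFb1, and 108, 105 and 91.0 with BMP2. The 3 groups were well apart. The rise was 6.69-fold with TGFb1 (log2 2.74 ± 0.14, adjusted p = 7.8e-08) and 2.86-fold with BMP2 (log2 1.51 ± 0.13, adjusted p = 5.9e-05), and BMP2 was lower than TGFb1 by 2.34-fold (log2 -1.23 ± 0.12, adjusted p = 6.6e-06). With the length and GC offset these values were 2.63, 1.59 and -1.03. Slc16a1 (MCT1, chr3:104638668-104658462), which moves lactate in either direction, read 92.0 and 98.0 CPM with vehicle, 46.9 and 53.4 with TGFb1, and 137, 118 and 116 with BMP2. TGFb1 lay below vehicle and BMP2 above it. The TGFb1 fall was 1.89-fold (log2 -0.92 ± 0.13, adjusted p = 0.0002), the BMP2 difference of 0.38 ± 0.12 did not pass (adjusted p = 0.071; 0.0489 with the length offset), and BMP2 exceeded TGFb1 by 2.47-fold (log2 1.30 ± 0.13, adjusted p = 7.4e-06).

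Ldha, the lactate dehydrogenase subunit that favours lactate formation, read 437 and 486 CPM with vehicle, 858 and 949 with TGFb1, and 957, 776 and 763 with BMP2. Both ligands lay above vehicle and overlapped each other. The rises were 0.97 ± 0.15 (adjusted p = 0.00035) and 0.85 ± 0.14 (adjusted p = 0.0034), and the second ended without Vehicle replicate 1 (0.78, adjusted p = 0.063). The direct difference between the ligands was -0.12 ± 0.14 (95% interval -0.42 to 0.19), and 0.27 (adjusted p = 0.106) with the length and GC offset. Ldhb, the subunit that favours pyruvate, read 22.9 and 26.1 CPM with vehicle, 49.4 and 30.5 with TGFb1, and 20.2, 15.4 and 15.6 with BMP2. Its TGFb1 rise of 0.71 ± 0.22 (adjusted p = 0.02) did not hold with the offsets (-0.09, adjusted p = 0.69, and -0.19, adjusted p = 0.31), nor without TGFb1 replicate 1 (0.32, adjusted p = 0.2), Vehicle replicate 1 (0.57, adjusted p = 0.14) or Vehicle replicate 2 (0.80, adjusted p = 0.054). The BMP2 difference of -0.51 ± 0.21 did not pass (adjusted p = 0.16), and passed with the length and GC offset (-0.48, adjusted p = 0.0473).

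**Figure D2:**
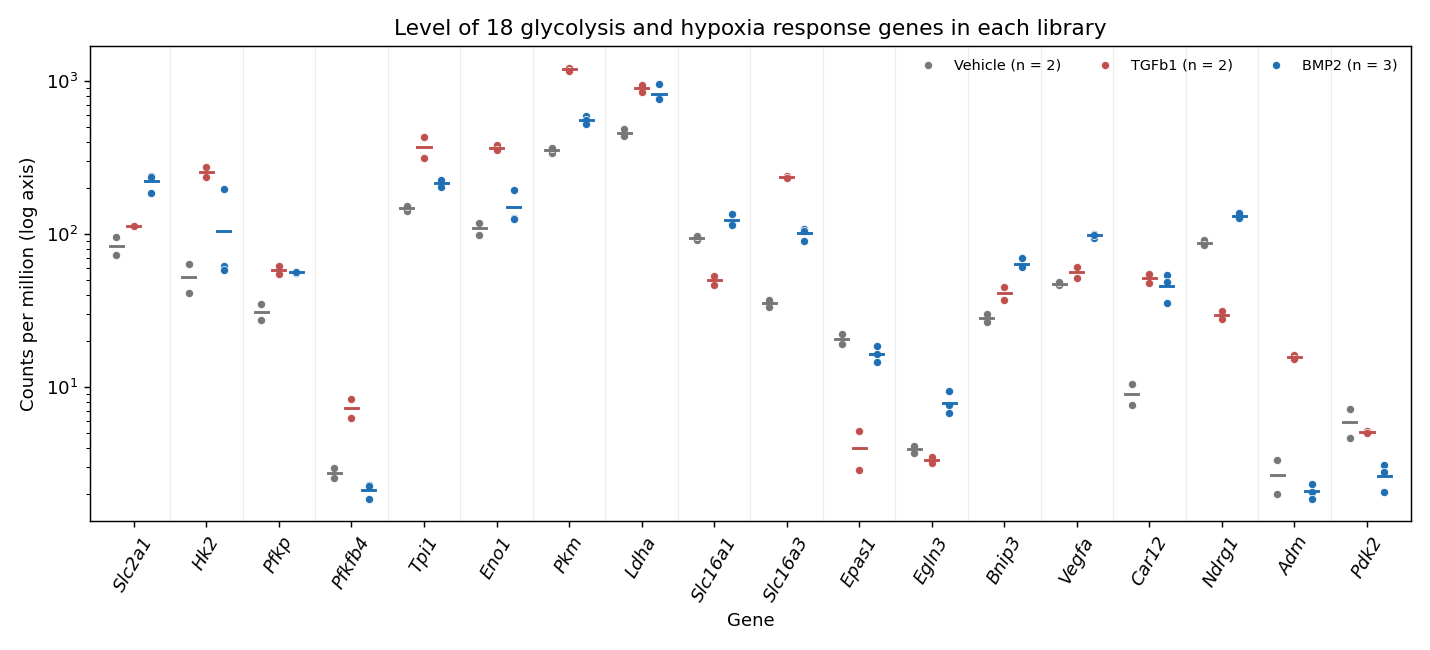
CPM on a log axis for 18 members in each library (points) with the group mean (bars), in order of their role; grey is vehicle, red TGFb1 and blue BMP2. Slc16a3 separates all 3 groups, Slc16a1 and Ndrg1 lie lowest with TGFb1 and highest with BMP2, and for Hk2 1 BMP2 library (198 CPM) stands apart from the other two (62.0 and 58.3 CPM).

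The 4 pyruvate dehydrogenase kinases, which switch off the entry of pyruvate into the citric acid cycle, showed no common direction. Pdk1, a known HIF target, read 48.4 and 52.5 CPM with vehicle, 45.5 and 51.2 with TGFb1, and 71.6, 67.7 and 63.4 with BMP2. Only the BMP2 libraries lay apart, by 0.42 ± 0.12 (adjusted p = 0.04). Pdk2 read 4.68 and 7.18 CPM with vehicle, 5.15 and 5.04 with TGFb1, and 3.09, 2.78 and 2.07 with BMP2, and was the 1 member that fell with BMP2 (log2 -1.17 ± 0.27, adjusted p = 0.018). Both BMP2 calls were fragile: that of Pdk1 ended when any 1 vehicle or BMP2 library was left out (adjusted p = 0.055 to 0.27), and that of Pdk2 ended without Vehicle replicate 2 (-0.82, adjusted p = 0.24) or BMP2 replicate 3 (-1.01, adjusted p = 0.067). Pdk3 passed against vehicle with neither ligand (-0.25 ± 0.14 and 0.41 ± 0.13). With the offsets it passed as lower with TGFb1 (-0.59, adjusted p = 0.00508, and -0.36, adjusted p = 0.0489) and, with the length and GC offset, as higher with BMP2 (0.43, adjusted p = 0.0472). It was higher with BMP2 than with TGFb1 (0.66 ± 0.13, adjusted p = 0.001). Pdk4 had 4 to 15 counts per library and read 2.01 and 0.837 CPM with vehicle, 0.294 and 0.611 with TGFb1, and 1.03, 1.06 and 0.564 with BMP2. Its TGFb1 fall of -1.61 ± 0.61 (adjusted p = 0.043) ended without TGFb1 replicate 1 (-1.18, adjusted p = 0.22), TGFb1 replicate 3 (-2.20, adjusted p = 0.0501), Vehicle replicate 1 (-0.92, adjusted p = 0.38) or BMP2 replicate 2 (adjusted p = 0.0534), with DESeq2 (adjusted p = 0.086) and with the length and GC offset (-1.53, adjusted p = 0.0558).

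Of the HIF alpha subunits, Epas1 fell with TGFb1 and Hif1a passed in no comparison with all 7 libraries. Epas1 (chr17:86753700-86833410) read 22.3 and 19.3 CPM with vehicle, 2.87 and 5.19 with TGFb1, and 14.7, 18.7 and 16.5 with BMP2. Both TGFb1 libraries lay far below the other 5. The fall was 5.16-fold (log2 -2.37 ± 0.25, adjusted p = 1.8e-05), and -2.24 with the length and GC offset. With BMP2 the difference was -0.33 ± 0.20 (adjusted p = 0.34). Hif1a, the more abundant subunit at the RNA level, read 349 and 354 CPM with vehicle, 267 and 318 with TGFb1, and 335, 301 and 300 with BMP2. Its differences were -0.26 ± 0.14 (95% interval -0.56 to 0.04; 0.03 with the length and GC offset) and -0.17 ± 0.12 (-0.45 to 0.10). HIF alpha subunits are controlled largely by protein stability, which RNA counts do not measure.

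The prolyl hydroxylase Egln1 read 72.3 and 79.3 CPM with vehicle, 109 and 125 with TGFb1, and 157, 122 and 114 with BMP2. It lay above vehicle with both ligands, by 0.63 ± 0.17 (adjusted p = 0.008) and 0.79 ± 0.15 (adjusted p = 0.0081). Without Vehicle replicate 1 the adjusted p was 0.084 and 0.096, and without Vehicle replicate 2 the second was 0.066. Egln3, the hydroxylase best known as a HIF target, read 4.15 and 3.71 CPM with vehicle, 3.53 and 3.21 with TGFb1, and 7.63, 9.41 and 6.77 with BMP2. Only the BMP2 libraries stood apart. It rose 2.00-fold with BMP2 (log2 1.00 ± 0.22, adjusted p = 0.016), a call that ended without Vehicle replicate 1 (1.09, adjusted p = 0.084), Vehicle replicate 2 (0.93, adjusted p = 0.15) or BMP2 replicate 2 (0.88, adjusted p = 0.0502). Egln3 was higher with BMP2 than with TGFb1 in every setting tried (1.22 ± 0.21, adjusted p = 0.00052).

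Of the 8 other hypoxia response genes, Car12 and Bnip3 rose with both ligands, Adm and Ankrd37 with TGFb1, and Vegfa and Ndrg1 with BMP2, while Ndrg1 and Car9 fell with TGFb1 and Ddit4 passed against vehicle with neither. The shares called were 75% with TGFb1 and 50% with BMP2, beside 56.2% and 11.5% of all tested genes. Car12, a cell-surface carbonic anhydrase that handles acid, read 10.6 and 7.66 CPM with vehicle, 48.0 and 55.2 with TGFb1, and 35.7, 54.0 and 48.9 with BMP2. All 5 treated libraries lay above vehicle and the ligands overlapped. The rises were 5.69-fold (log2 2.51 ± 0.23, adjusted p = 6e-06) and 5.07-fold (log2 2.34 ± 0.22, adjusted p = 9.5e-05), the largest of the 39 members with BMP2, and the ligands differed by -0.17 (95% interval -0.55 to 0.22). Car9, the related enzyme best known as a HIF-1 target, read 9.76 and 10.0 CPM with vehicle, 6.40 and 7.02 with TGFb1, and 8.41, 8.62 and 11.3 with BMP2. Its TGFb1 fall of -0.56 ± 0.20 (adjusted p = 0.033) was larger with the offsets (-0.96 and -0.91), but ended without TGFb1 replicate 1 (adjusted p = 0.13) or 3 (0.058) and without Vehicle replicate 1 (0.074) or 2 (0.12).

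Adm, the vasoactive peptide adrenomedullin, read 2.01 and 3.35 CPM with vehicle, 16.2 and 15.4 with TGFb1, and 2.06, 1.86 and 2.35 with BMP2. Only TGFb1 stood apart, 5.82-fold above vehicle (log2 2.54 ± 0.24, adjusted p = 8.4e-06) and 1.96 with the length and GC offset. Ankrd37, a small ankyrin repeat protein, read 2.54 and 2.03 CPM with vehicle, 19.9 and 10.1 with TGFb1, and 1.89, 1.99 and 1.69 with BMP2. Its TGFb1 rise was 6.57-fold (log2 2.72 ± 0.36, adjusted p = 0.0001), but its transcript is 927 nucleotides long and the value was 0.68 (adjusted p = 0.056) with the length and GC offset. Ankrd37 shares 26.4% of its exon bases with genes on the opposite strand.

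Bnip3, which marks mitochondria for removal, read 30.4 and 26.6 CPM with vehicle, 45.4 and 37.1 with TGFb1, and 69.7, 61.9 and 60.9 with BMP2. The groups lay in that order without overlap. The BMP2 rise was 2.26-fold (log2 1.18 ± 0.14, adjusted p = 0.0004). The TGFb1 rise of 0.54 ± 0.15 (adjusted p = 0.0095) ended with the offsets (0.11, adjusted p = 0.49, and 0.31, adjusted p = 0.083), without TGFb1 replicate 1 (0.39, adjusted p = 0.063) and without Vehicle replicate 2 (0.44, adjusted p = 0.094). Bnip3 shares 22.3% of its exon bases with a gene on the opposite strand. Vegfa, the main growth factor of blood vessels, read 46.8 and 48.6 CPM with vehicle, 51.9 and 61.4 with TGFb1, and 101, 94.9 and 99.7 with BMP2. The BMP2 libraries stood apart from all others, 2.07-fold above vehicle (log2 1.05 ± 0.12, adjusted p = 0.00031), and the TGFb1 difference was 0.25 ± 0.13 (adjusted p = 0.12).

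Ndrg1, a stress-responsive gene of cell growth and differentiation (chr15:66929318-66969640), moved in opposite directions. It read 91.6 and 85.2 CPM with vehicle, 28.2 and 31.5 with TGFb1, and 128, 129 and 138 with BMP2. The 3 groups were apart, TGFb1 below vehicle and BMP2 above. The TGFb1 fall was 2.96-fold (log2 -1.57 ± 0.12, adjusted p = 2.3e-06) and the BMP2 rise 1.49-fold (log2 0.57 ± 0.11, adjusted p = 0.0078), and the latter ended without Vehicle replicate 1 (0.63, adjusted p = 0.06) or 2 (0.52, adjusted p = 0.12). The direct difference was 4.41-fold (log2 2.14 ± 0.12, adjusted p = 9.5e-08). Ddit4, an inhibitor of mTORC1 signalling, passed against vehicle with neither ligand (-0.14 ± 0.16 and 0.24 ± 0.14), and with the offsets it passed as lower with TGFb1 (-0.78, adjusted p = 0.0023, and -0.73, adjusted p = 0.0016).

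In the direct comparison of the ligands, BMP2 was higher than TGFb1 for 12 members and lower for 14, 26 in all (66.7%), where 61.4% of all tested genes were called (28.1% higher and 33.3% lower). With the length offset 13 were higher and 14 lower, where 61% of all tested genes were called (32.6% higher and 28.5% lower). With the length and GC offset 16 were higher and 10 lower, where 58.1% were called (31.5% higher and 26.6% lower). From hexokinase to pyruvate kinase 9 of 17 genes were lower with BMP2 and 1, Pgam1, was higher. With the length and GC offset 7 of the 17 were lower and 4 (Pgam1, Pfkl, Pfkm and Gapdh) higher, and the calls of Tpi1 (-0.23, adjusted p = 0.137) and Pgk1 (-0.22, adjusted p = 0.167) ended. Lower as well without an offset were Slc16a3, Ldhb, Pdk2, Ankrd37 and Adm, and the calls of Ldhb (-0.29, adjusted p = 0.0821) and Pdk2 (-0.54, adjusted p = 0.0815) ended with the length and GC offset. Egln1 passed as higher with that offset alone (0.41, adjusted p = 0.0157). The genes higher with BMP2 were Slc2a1, Slc16a1, Pdk1, Pdk3, Epas1, Egln3, Bnip3, Vegfa, Car9, Ddit4 and Ndrg1 beside Pgam1. The largest differences were those of Ankrd37 (-3.02 ± 0.31, and -0.92 with the length and GC offset), Adm (-2.90 ± 0.21), Ndrg1 (2.14 ± 0.12) and Epas1 (2.04 ± 0.23). That of Ddit4 was 0.38 (adjusted p = 0.0379), and 1.01 with the length and GC offset. Across 31 alternative settings, 16 of these 26 calls kept their direction and their side of the threshold, among them Adm, Aldoc, Eno1, Gpi1, Pkm, Pfkfb4 and Slc16a3 as lower and Bnip3, Egln3, Epas1, Ndrg1, Pdk3, Pgam1, Slc16a1, Slc2a1 and Vegfa as higher. That of Hk2 (-1.26 ± 0.43, adjusted p = 0.026) ended without BMP2 replicate 2 (-0.99, adjusted p = 0.079), BMP2 replicate 3 (-0.97, adjusted p = 0.078) or TGFb1 replicate 3 (-1.16, adjusted p = 0.085).

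Against vehicle, 16 of the 26 TGFb1 calls held in all 31 settings: Hk1, Hk2, Gpi1, Pfkp, Pfkfb4, Aldoc, Tpi1, Pgk1, Eno1, Pkm, Slc16a3, Car12 and Adm as higher, and Epas1, Slc16a1 and Ndrg1 as lower. Of the 16 BMP2 calls 6 held, those of Slc2a1, Pfkp, Slc16a3, Bnip3, Vegfa and Car12. Among members that share a transcript length class, values were still spread widely. The 14 members of 3000 to 5000 nucleotides ran from -1.61 to 2.74 with TGFb1, with a median of 0.53. The 3996 tested genes of that class had a median of -0.17. The 7 members of 1500 to 2000 nucleotides had a median of 0.97, against 0.28 over 1408 genes. In the other classes of up to 3000 nucleotides the members did not exceed all genes or did so by little. The 11 members of 2000 to 3000 nucleotides had a median of -0.15, against 0.05. The 3 of 1000 to 1500 had 1.03 against 0.94, and the 1 of up to 1000 had 2.72 against 2.77. Above 5000 nucleotides the 3 members had -0.06, against -0.44.

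**Figure D3:**
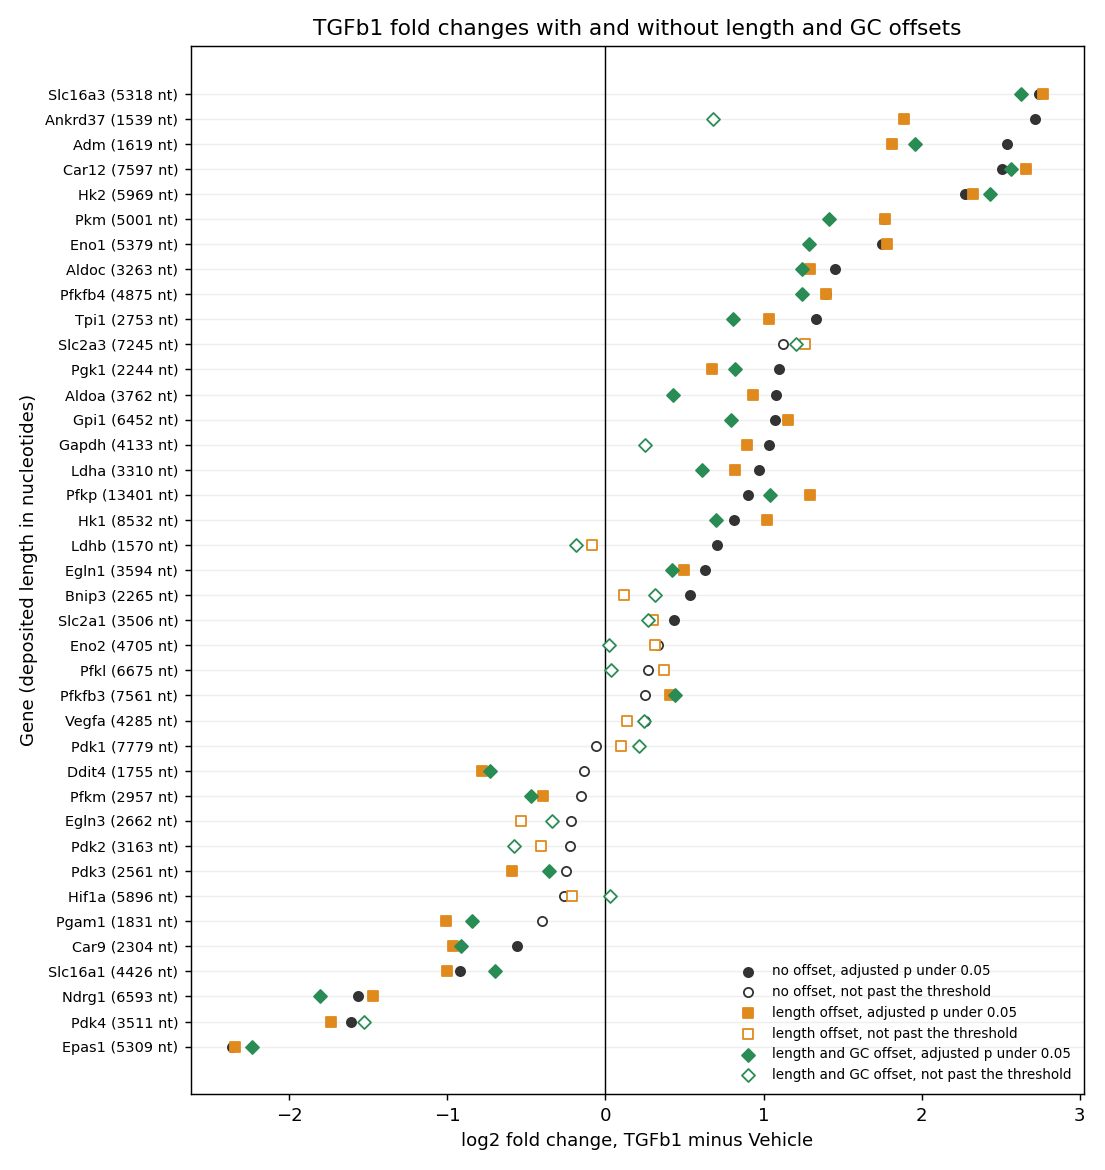
Log2 fold change of TGFb1 against vehicle (x axis) for the 39 members, sorted by their value without an offset, with no offset (circles), a length offset (squares) and a length and GC offset (diamonds); filled symbols passed an adjusted p of 0.05. Slc16a3, Car12, Hk2 and Epas1 stay nearly in place, while Ankrd37 moves from 2.72 to 0.68 and Ldhb from 0.71 to -0.19.

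Levels of different genes were compared per kilobase of the deposited gene length. With vehicle the highest were Aldoa (148 CPM per kb), Ldha (139), Pkm (70.8), Hif1a (59.6) and Tpi1 (53.7). With TGFb1 they were Aldoa (311), Ldha (273), Pkm (240) and Tpi1 (135), and with BMP2 Ldha (251), Aldoa (240), Pkm (112) and Tpi1 (79.0), followed by Slc2a1 (63.5). The lowest with vehicle were Slc2a3 (0.0845) and Pdk4 (0.405). The order of the first 3 was thus the same with vehicle and TGFb1. Besides Gapdh, near-identical copies are annotated among others for Bnip3 (5), Ldha and Pgk1 (4 each), Eno1 (3), Pkm (2), Tpi1 (1) and Pgam1 (1). How reads with several matches were counted is not stated, so the levels of these genes are uncertain as well.

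Within sets of enzymes that share a step, the share of each form was taken from counts divided by the deposited length, with no test. Slc16a3 made up 23.3% and 24.1% of the Slc16a1 and Slc16a3 sum with vehicle, 81.1% and 78.4% with TGFb1, and 39.7%, 42.6% and 39.5% with BMP2. MCT4 RNA was thus the minor form with vehicle and BMP2 and the major one with TGFb1. Pfkfb4 held 9.91% and 12.8% of the Pfkfb3 and Pfkfb4 sum with vehicle, 24.2% and 19.7% with TGFb1, and 8.91%, 6.35% and 8.02% with BMP2. Epas1 held 6.63% and 5.70% of the HIF alpha sum with vehicle, 1.18% and 1.78% with TGFb1, and 4.64%, 6.46% and 5.75% with BMP2. Hif1a was therefore the main alpha subunit RNA in all 7 libraries. Ldhb held 9.94% and 10.2% of the lactate dehydrogenase sum with vehicle, 10.8% and 6.34% with TGFb1, and 4.27%, 4.01% and 4.13% with BMP2, the lowest of the groups. With transcript in place of deposited length the mean Slc16a3 share was 27.6%, 82.9% and 45.6% in the 3 groups.

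**Figure D4:**
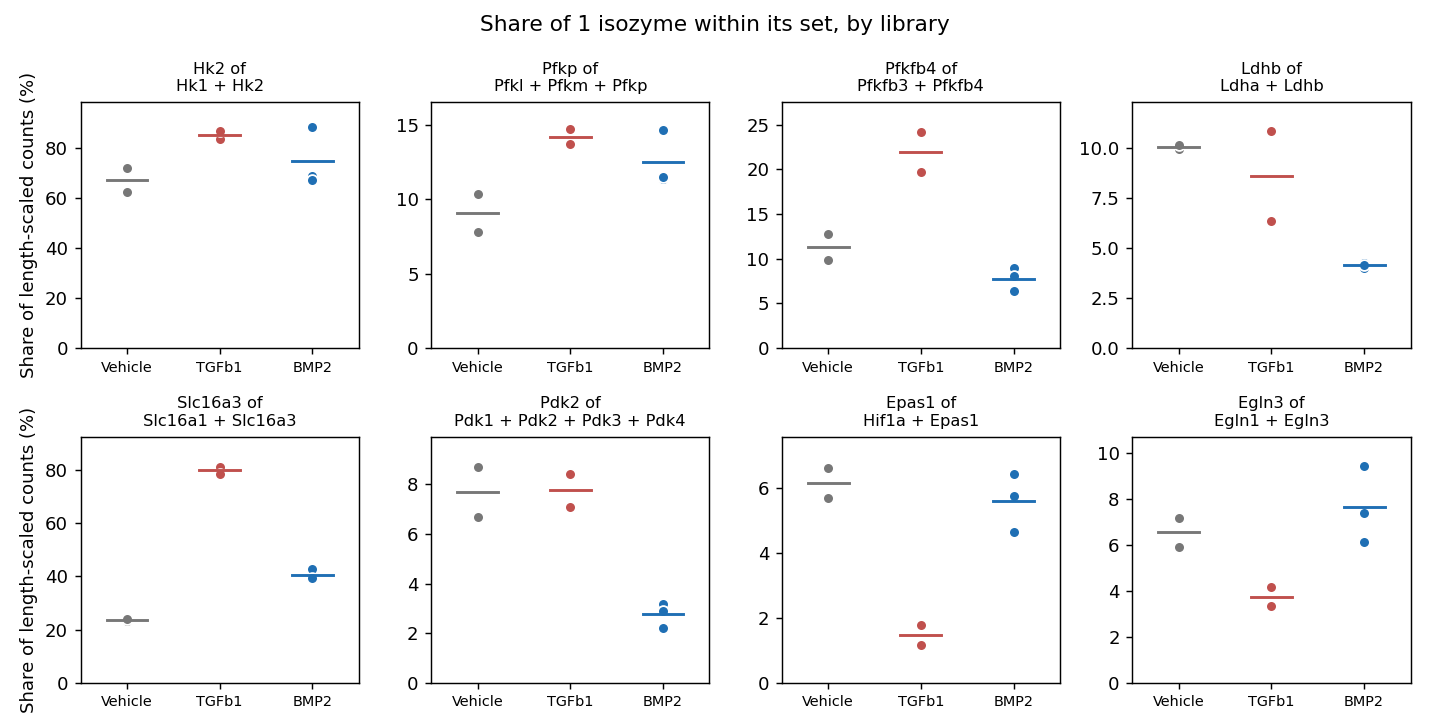
Share (%) of 1 form within its set of isozymes or paralogs, from counts divided by the deposited gene length, by library (points) with the group mean (bars). The Slc16a3 share is near 24% with vehicle, near 80% with TGFb1 and near 41% with BMP2, and the Epas1 share is lowest with TGFb1.

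Further genes of the same pathways, taken from lists chosen with earlier results of these data known, gave a less uniform picture. Of 18 tested genes of other glycolytic and lactate steps, 4 rose and 5 fell with TGFb1, and none rose and 3 fell with BMP2. The shares called, 50% and 16.7%, stand beside 56.2% and 11.5% of all tested genes. With the length offset 4 rose and 7 fell with TGFb1 (61.1%, beside 54.1% of all tested genes). With the length and GC offset 4 rose and 8 fell (66.7%, beside 50.9%). Those that rose with TGFb1 included fructose bisphosphatases, which run opposite to glycolysis, and a phosphoglycerate mutase, which is part of it. Fbp2, the muscle fructose bisphosphatase, read 0 and 0.718 CPM with vehicle, 60.8 and 38.9 with TGFb1, and 0.515, 0.133 and 0.282 with BMP2. Fbp1, the liver form, read 2.27 and 1.20, then 27.5 and 20.9, then 2.23, 0.663 and 2.07 CPM in the same order. Pgam2, the muscle phosphoglycerate mutase, read 0.669 and 0.478, then 61.3 and 40.1, then 0.944, 0.265 and 0.658 CPM. Pgam1, the member at the same step, read 7.65 and 7.41 CPM with TGFb1. Pgam2 has only 840 exon bases, and short transcripts ran higher with TGFb1 over all genes. Fbp2, Fbp1 and Pgam2 were near the detection limit outside TGFb1, so no fold change is given for them. Gpd2, the mitochondrial glycerol phosphate dehydrogenase, fell with TGFb1 by 1.32 on the log2 scale (SE 0.13, adjusted p = 1.6e-05). It was also among the genes that fell with BMP2.

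Of 28 genes of pyruvate entry and the citric acid cycle, 7 rose and 9 fell with TGFb1 (1 and 11 with the length and GC offset), and none rose and 3 fell with BMP2. The shares called, 57.1% and 10.7%, were near those of all tested genes (56.2% and 11.5%). Pdp1, the phosphatase that reactivates pyruvate dehydrogenase, fell with both, by 1.69 (SE 0.17, adjusted p = 1.6e-05) and by 1.43 (SE 0.16, adjusted p = 0.00027) on the log2 scale. Suclg2 and Fh1, of the cycle itself, fell with TGFb1 by 1.26 (SE 0.20, adjusted p = 0.00032) and by 0.90 (SE 0.14, adjusted p = 0.00035). Pcx, which makes oxaloacetate from pyruvate, fell with BMP2 by 0.83 (SE 0.17, adjusted p = 0.011).

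Of 19 tested genes of glycogen storage and the pentose phosphate pathway, 4 rose and 7 fell with TGFb1, and 8 rose and none fell with BMP2. The share called was 57.9% with TGFb1, near the 56.2% of all tested genes, and 42.1% with BMP2, against 11.5% of all tested genes. Ppp1r3b, which brings a phosphatase to glycogen and so promotes its synthesis, read 26.2 and 26.3 CPM with vehicle, 5.00 and 5.19 with TGFb1, and 51.1, 54.5 and 52.2 with BMP2. The 3 groups did not overlap. It fell with TGFb1 by 2.36 (SE 0.14, adjusted p = 1.9e-07) and rose with BMP2 by 1.00 (SE 0.11, adjusted p = 0.00028). Its relative Ppp1r3c did likewise (-1.50 ± 0.14, adjusted p = 6.3e-06, and 0.56 ± 0.12, adjusted p = 0.0115). Ugp2, which makes UDP-glucose, rose with BMP2 by 1.39 ± 0.11 (adjusted p = 5.1e-05), as did the glycogen synthase Gys1 by 0.74 ± 0.12 (adjusted p = 0.003), and neither passed with TGFb1 (-0.12 ± 0.12 and -0.11 ± 0.13). UDP-glucose is also a precursor of the sugar chains of cartilage matrix. Pgd, of the pentose phosphate pathway, rose with both (1.04 ± 0.12, adjusted p = 3.3e-05, and 0.47 ± 0.11, adjusted p = 0.0185).

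Of 13 tested genes that regulate HIF, 3 rose and 6 fell with TGFb1, and 1 rose and 2 fell with BMP2. The shares called were 69.2% and 23.1%, beside 56.2% and 11.5% of all tested genes. With either offset 4 rose and 8 fell with TGFb1 (92.3%), beside 54.1% and 50.9% of all tested genes. Rbx1, a subunit of the ubiquitin ligase that removes HIF alpha, rose with TGFb1 by 4.02 ± 0.16 (adjusted p = 1.6e-08), and Cul2, another subunit of it, fell by 1.12 (SE 0.12, adjusted p = 2.8e-05). Egln2, the remaining prolyl hydroxylase, rose with TGFb1 by 1.08 ± 0.16 (adjusted p = 0.00022). Of 37 tested further hypoxia response genes, 20 rose and 9 fell with TGFb1, and 12 rose and 1 fell with BMP2, with medians of 0.47 and 0.30. The shares called were 78.4% and 35.1%, beside the same 56.2% and 11.5%. Higd1a, a mitochondrial protein, read 89.1 and 94.3 CPM with vehicle, 1520 and 1286 with TGFb1, and 125, 137 and 134 with BMP2, and rose with both (3.94 ± 0.15, adjusted p = 1.2e-08, and 0.53 ± 0.13, adjusted p = 0.022). No offset value is given here for Rbx1 and Higd1a, and short transcripts ran higher with TGFb1 over all genes. Lox, a collagen cross-linking enzyme, rose with TGFb1 by 3.19 ± 0.15 (adjusted p = 4e-08) and differed by 0.27 ± 0.13 with BMP2. Angptl4, a lipase inhibitor, fell with both (-1.24 ± 0.15, adjusted p = 6.6e-05, and -2.31 ± 0.15, adjusted p = 2.2e-05), and Stc2, a secreted glycoprotein, rose with both (0.92 ± 0.13, adjusted p = 0.00016, and 0.78 ± 0.12, adjusted p = 0.0023).

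**Figure D5:**
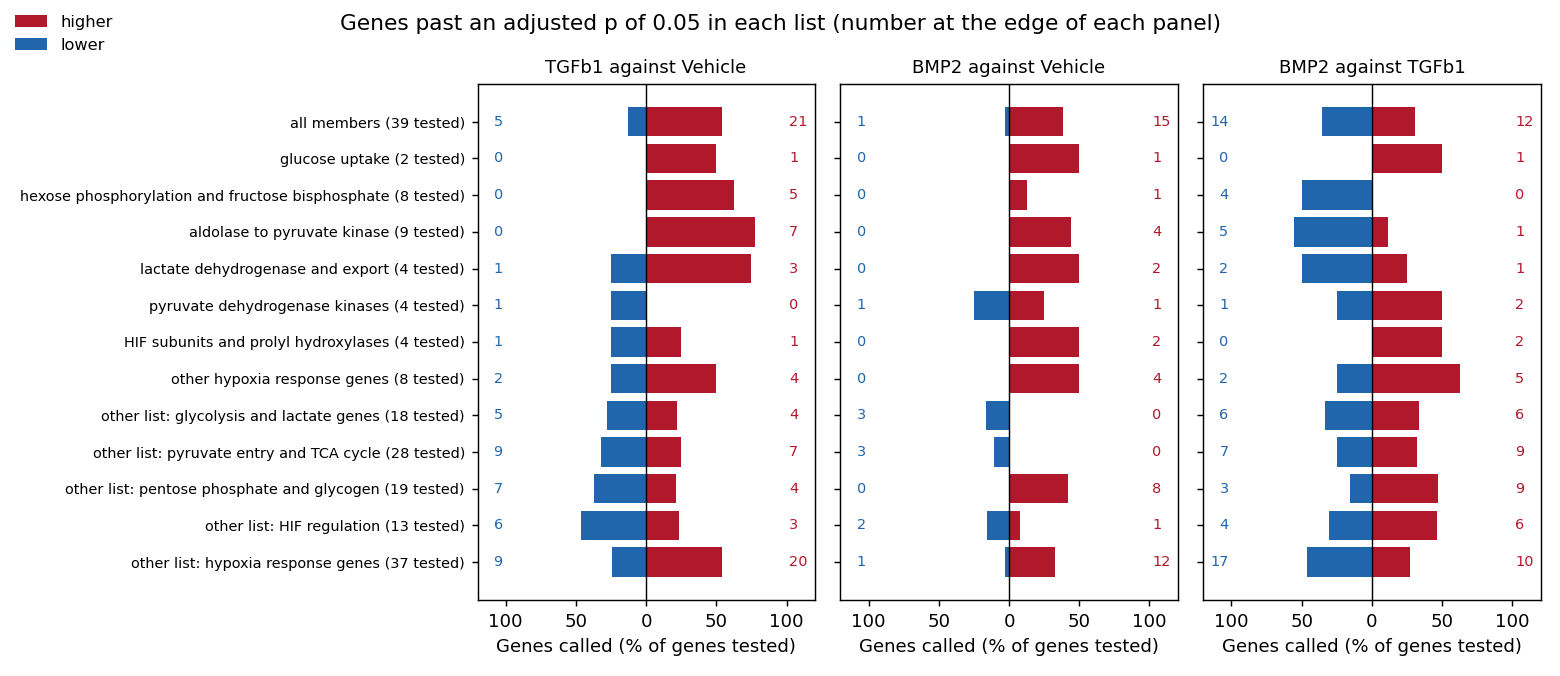
Share of the tested genes of each list (%) that passed an adjusted p of 0.05, higher in red to the right and lower in blue to the left, for the 3 comparisons, with the number of genes at the edge of each panel. The members of the steps from aldolase to pyruvate kinase are 7 up and 0 down with TGFb1, and the glycogen and pentose phosphate list is 8 up and 0 down with BMP2 but 4 up and 7 down with TGFb1. Of all tested genes, 30.4% were higher and 25.8% lower with TGFb1, and 5.33% and 6.15% with BMP2.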

How the data were processed

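Bulk RNA sequencing of 7 libraries was analysed from 1 deposited table that lists, for every gene name, its length in nucleotides and the raw counts of all libraries. Per the submitters' processing notes, the tools named for the authors' processing are cutadapt, STAR 2.4.2a, Subread, featureCounts and DESeq2 with the mm10 build. The labels state neither the annotation, nor the strand setting, nor how reads with several matches were treated. The deposited count values were whole numbers with unequal totals and were used as they are, and the deposited gene length, classed as a score, served for values per kilobase and for an offset.

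Counts were fitted with edgeR 4.0.16 in R 4.3.3: filterByExpr (13367 genes), TMM scaling, 1 quasi-likelihood fit over all 7 libraries with a coefficient per group (4 residual degrees of freedom, common biological coefficient of variation 0.133), two-sided tests and Benjamini-Hochberg adjustment over all tested genes at 0.05. CPM used TMM-scaled library sizes. The ± of a log2 fold change is its standard error, and intervals are 95%. The length offset is a lowess curve (span 0.15) of each library on the deposited length; the length and GC offset does the same on the longest basic transcript of GENCODE M21 (13110 genes with a match). Near-identical copies were found with BLAST 2.17.0 (at least 95% identity over 200 nucleotides). Fits were tried on simulated data drawn from the vehicle levels with a common spread and few changed genes. Such data lack the transcript length trend, so they do not show how the fits behave under it. Alternatives were DESeq2 1.42.0, its size factors, other filters, only the 2 groups compared, a replicate block, both offsets and leaving out each library.

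The members, the lists and the rules were chosen with earlier results of these data known. All members are accounted for; those given by library are the called members without overlap of the groups, by smallest p, up to 15, 10 and 10 in the 3 comparisons, a fixed set of 12, and some others chosen after their values were seen. Up to 4 called genes of each pathway list with the smallest p could be named. Promoters were taken for the 8 members with the largest changes past the threshold with and without the offsets, where 200 bases were free of exons. Same-numbered libraries were not taken as pairs.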

Additional observations from a re-analysis of the deposited data

How the results depend on the processing

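The numbers of members called, 26 for TGFb1 and 16 for BMP2 relative to vehicle and 26 between the ligands, stayed within 1.5 times under every alternative except the loss of a vehicle library in the second. Without 1 library that count ran from 7 to 18 with no offset, from 8 to 20 with the length offset and from 9 to 19 with the length and GC offset, and the lowest values were those without Vehicle replicate 1 or 2. The replicate block gave 23, 11 and 25 calls. Over all 13367 tested genes it gave 3496 up and 2590 down, 354 up and 417 down, and 3203 up and 4084 down. Without the block these were 4067 and 3450, 713 and 822, and 3750 and 4456. Same-numbered libraries did not deviate together (correlations of -0.139 to -0.001), so the numbers give no pairing, and no crossed pairing was tried. DESeq2 gave 23, 16 and 24 calls. All tested genes then gave 3644 up and 2813 down, 643 up and 590 down, and 3346 up and 3941 down. No filter gave 25, 21 and 26. The 28908 genes of that fit gave 4489 up and 3685 down, 1003 up and 1009 down, and 4139 up and 5037 down.

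Some values changed direction. Ldhb, TGFb1 against vehicle (0.71), was -0.086 with the length offset, -0.189 with the length and GC offset, -0.003 and -0.131 with the replicate block and each offset, -0.316, -0.112, -0.099, -0.099 and -0.089 with the length offset when a library was also left out, and -0.362 to -0.04 (with -0.188, -0.184 and -0.148 between) with the length and GC offset. Gapdh, BMP2 against TGFb1 (-0.23), was 0.574 with the length and GC offset, 0.642 with the replicate block besides, and 0.501 to 0.904 (with 0.586, 0.59, 0.6 and 0.602 between) without 1 library; against vehicle with TGFb1 it was -0.07 with that offset and without TGFb1 replicate 1. The length and GC offset alone also turned BMP2 against TGFb1 for Aldoa (-0.38 to 0.28), Ldha (-0.12 to 0.27) and Hif1a (0.09 to -0.20), and TGFb1 against vehicle for Pdk1 (-0.06 to 0.21) and Hif1a (-0.26 to 0.03), none of which passed the test with or without it. With an offset and 1 library left out, BMP2 against TGFb1 was 0.031 to 0.033 for Pgk1, -0.294 for Hif1a, 0.381 for Aldoa and 0.411 for Ldha. The Hif1a value, with the length and GC offset and without BMP2 replicate 1, passed the test (adjusted p = 0.0319). Those of Aldoa and Ldha rest on 1 TGFb1 library, so only their size is given. Other values crossed 0 in some setting, none with a call on the turned side. For TGFb1 against vehicle these were Eno2, Pfkl and Pdk2. For BMP2 against vehicle they were Eno2, Adm, Aldoc, Car9, Pfkm and Pdk4, and between the ligands Eno2, Pfkp, Pfkfb3 and Slc2a3. The causes were not tested. The length and GC offset without a library or with the replicate block was chosen after seeing the data.

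Few counts (Slc2a3, Pdk4), 2 vehicle libraries and 4 residual degrees of freedom limit the precision of these values.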
